A study of Mus musculus with 9 samples.

Results

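Proteasome subunit genes were examined in bulk skin RNA-Seq from 5 control and 4 *Supt6*-KO mice. The members are the rows of the deposited count table whose mouse symbol is *Psma*, *Psmb*, *Psmc*, *Psmd* or *Psme* followed by a number, which gave 43 genes of 17943. They comprise 14 constitutive genes of the 20S core (7 of the α ring and 7 of the β ring), 17 genes of the 19S regulatory particle, 3 chaperones of 19S base assembly that carry *Psmd* symbols, 5 genes of the immunoproteasome and its activator, 2 further activators and 2 tissue-restricted core subunits. *Supt6*-KO mice were K14-CreERT; *Supt6* fl/fl animals given tamoxifen, and skin was taken on day 10 after the last injection. Controls were *Supt6* fl/fl mice without the transgene that received corn oil, so that Cre, tamoxifen and loss of *Supt6* cannot be told apart. The keratin 14 promoter drives CreERT in basal keratinocytes and other K14-positive epithelia, whereas the libraries were made from whole skin. The sample labels call the tissue ear and the controls wild-type, while the study describes lesional dorsal skin and floxed controls. The study describes daily injections for 5 days in the first telogen phase of the hair cycle. An age in weeks and the strain of these mice were not given in the sources used here.

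The 26S proteasome degrades proteins tagged with ubiquitin. Its 20S core is a barrel of α and β rings, with the cutting sites on certain β subunits, and the 19S regulatory particle binds, deubiquitinates and unfolds substrates and feeds them into the core. Interferon and other inflammatory signals can replace the catalytic subunits by the immunoproteasome subunits *Psmb8*, *Psmb9* and *Psmb10* and raise the PA28 activator (*Psme1* and *Psme2*), which together favor peptides for MHC class I presentation. When proteasome capacity falls short, the transcription factor NRF1 (*Nfe2l1*) raises subunit genes together through antioxidant response elements in their promoters.

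Short stretches before the RefSeq start of 4 genes (GRCm38.p6, each 30 bases, written on the strand of the gene) are shown because the catalytic partners *Psmb5* and *Psmb6* carry the core letters of an antioxidant response element while the immunoproteasome genes do not. Capitals mark that core in *Psmb5* and *Psmb6*, a gamma-activated site in *Psmb8* and a CCAAT box in *Psmb9*. They lie at chr14:54618026-54618055 (reverse strand), chr11:70525327-70525356 (forward), chr17:34198087-34198116 (forward) and chr17:34187331-34187360 (reverse).
Psmb5: ggacgtgaagttgTGACGTCGCggcgttgc
Psmb6: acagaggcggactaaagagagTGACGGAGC
Psmb8: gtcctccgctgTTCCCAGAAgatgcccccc
Psmb9: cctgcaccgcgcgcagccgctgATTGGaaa
A RefSeq window from 250 bases before to 50 bases after the start was at hand for 36 of the 43 genes, and letters were searched on both strands. *Psma6*, *Psmc2* and *Psme2* had more than 1 window and were counted when any window held the letters. The shares of all windows are per window, not per gene. The antioxidant response element core (TGACNNNGC or TGAGNNNGC) was found in 15 of these 36 genes (41.7%) against 27.8% of all 32851 windows. It was present in 7 of 11 core genes, 5 of 14 regulatory particle genes and 0 of 5 immunoproteasome genes. No window was at hand for the catalytic partner *Psmb7*, and the differences between these groups were not tested. The CCAAT box was found in 14 of 36 (38.9%) against 37.4% of all windows, the interferon-stimulated response element core (GAAANNGAA) in 6 (16.7%) against 8.56%, the gamma-activated site (TTCNNNGAA) in 2 (5.56%) against 8.3%, and the NF-κB consensus in 1 (2.78%) against 4.51%. These matches describe letters within the windows, which overlap transcribed sequence of longer annotated transcripts at some of the genes, and no binding was measured.

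Libraries held 29627341 to 30491197 estimated counts in the controls and 30597189 to 30967107 in *Supt6*-KO mice. Values are counts scaled to a common library size after TMM scaling (CPM, counts in each 1000000), and a gene was called at an adjusted p under 0.05 in edgeR's quasi-likelihood test over the 16426 genes with at least 10 counts in sum. *Supt6* itself had 74.5, 56.6, 63.6, 91.1 and 96.7 CPM in controls 1 to 5 and 28.6, 24.1, 21.9 and 28.4 CPM in *Supt6*-KO mice 1 to 4. Each *Supt6*-KO mouse was below each control, with a log2 fold change of -1.57 (SE 0.18, adjusted p = 1.3e-05). It was called lower at -2.26 with library totals and at -0.83 when transcript length was allowed for through counts per TPM. The keratinocyte keratin *Krt14* had 2970 to 3810 CPM in the controls and 4730, 3110, 3960 and 9610 CPM in the *Supt6*-KO mice (adjusted p = 0.063), with mouse 4 apart from the others. Its basal partner *Krt5* fell from 4630 to 2540 CPM (log2 fold change -0.86), and *Trp63*, a basal transcription factor, fell by 1.21.

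The libraries differed in composition. The scaling factors were 1.198 to 1.315 in controls and 0.674 to 0.910 in *Supt6*-KO mice, and over all genes the log2 fold change had a median of -0.07 after TMM scaling but -0.76 with library totals, a shift of -0.69. Each fold change is therefore relative to the bulk of genes, and the values with library totals are given for the subunit genes whose direction turned and for most of those whose call differed. Control 5 had the lowest CPM of the controls for 38 of the 42 tested members, including each of the 14 core genes. *Supt6*-KO mouse 4 had the highest CPM of its group for 13 of 17 regulatory particle genes but the lowest for each of the 5 immunoproteasome genes.

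Most subunit genes were higher in *Supt6*-KO skin. Of the 43 members 42 could be tested, and 36 were higher, 0 were lower and 6 were not called, where 34.1% of all genes tested were called higher and 36.8% lower. At an unadjusted p under 0.05 still 0 were lower, and with DESeq2 the counts were 37 higher and 0 lower. The median log2 fold change of the tested members was 1.13 and the range was -0.20 (*Psmd3*) to 2.52 (*Psma7*). A rise of at least 2-fold was called for 27 members and a fall of that size for 0, against 20.9% and 24.9% of all genes. The *Supt6*-KO mice lay above each control for 33 of the 42 and below each control for 0, against 28.9% and 31.8% of all genes. With library totals 23 members were higher and 4 lower, where 16.9% of all genes were higher and 54.6% lower. The share of all counts taken by the 43 genes, which divides by the library total, was 0.597, 0.663, 0.643, 0.574 and 0.516% in the controls and 0.831, 0.758, 0.812 and 0.977% in the *Supt6*-KO mice, with no overlap.

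**Figure D1:**
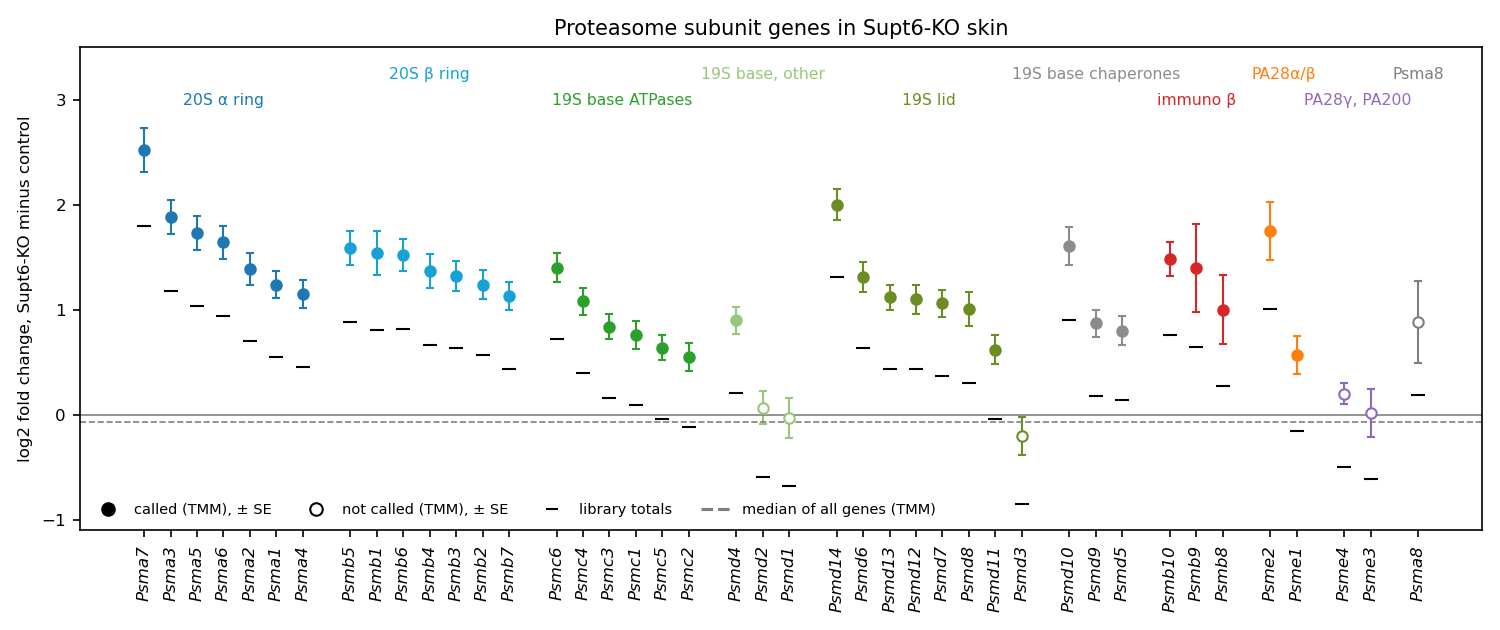
Log2 fold change (Supt6-KO minus control) of the 42 tested subunit genes by group, with TMM scaling (circles, bars are SE; open circles not called) and with library totals (black dashes); the dashed line is the median of all genes at -0.07. The 14 core genes stay above 0 with both scalings, whereas *Psmc2*, *Psmc5*, *Psmd2*, *Psmd11*, *Psme1*, *Psme3* and *Psme4* lie above 0 with TMM and below 0 with library totals.

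Each of the 14 constitutive genes of the 20S core was called higher, by 1.13 to 2.52 on the log2 scale (median 1.45), with each *Supt6*-KO mouse above each control. Of all genes 34.1% were called higher and 28.9% were separate in this way. With library totals the 14 were still called higher (16.9% of all genes) and their median was 0.76. When transcript length was allowed for 12 were called, by GENCODE lengths (33.7% of all genes) or by counts per TPM (35.1%). The α subunits form the outer rings and the gate of the barrel. *Psma7* had the largest change of all members after TMM scaling, at 102, 143, 134, 93.8 and 79.3 CPM in the controls and 550, 741, 747 and 487 CPM in the *Supt6*-KO mice. The lowest *Supt6*-KO value was more than 3 times the highest control value, and the log2 fold change was 2.52 (SE 0.21, adjusted p = 2e-06). When length was allowed for *Psma3* changed more than *Psma7* (1.86 against 1.78 with GENCODE lengths, 1.81 against 1.71 with counts per TPM). The smallest change in the α ring was that of *Psma4*, at 114, 139, 138, 113 and 99.9 CPM in the controls and 263, 275, 275 and 259 CPM in the *Supt6*-KO mice. Its groups were also separate and its *Supt6*-KO values lay close together (log2 fold change 1.15, SE 0.13, adjusted p = 1.1e-05). *Psma3*, *Psma5*, *Psma6*, *Psma2* and *Psma1* rose by 1.88, 1.73, 1.64, 1.39 and 1.24 on the log2 scale.

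The β ring holds the proteolytic sites. *Psmb5*, the chymotrypsin-like subunit, had 112, 131, 127, 101 and 81.7 CPM in the controls and 323, 374, 362 and 270 CPM in *Supt6*-KO mice (log2 fold change 1.59, SE 0.16, adjusted p = 6.8e-06). *Psmb6*, the caspase-like subunit, had 117, 142, 129, 106 and 86.3 CPM against 322, 335, 368 and 302 CPM (log2 fold change 1.52, SE 0.15, adjusted p = 5.8e-06). *Psmb7*, the trypsin-like subunit, had 157, 173, 179, 150 and 123 CPM against 327, 333, 345 and 359 CPM (log2 fold change 1.13, SE 0.13, adjusted p = 1.6e-05). For these 3 catalytic genes the groups were separate, *Supt6*-KO mouse 4 was the lowest of its group for *Psmb5* and *Psmb6* and the highest for *Psmb7*, and control 5 was the lowest control. The structural subunits *Psmb1*, *Psmb4*, *Psmb3* and *Psmb2* rose by 1.54, 1.37, 1.32 and 1.24 on the log2 scale, of which *Psmb3* (0.30) and *Psmb2* (0.35) were not called when counts per TPM were allowed for.

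The 19S regulatory particle was not higher throughout. Of its 17 genes 14 were called higher, 0 lower and 3 were not called, with a median log2 fold change of 0.90. With library totals 6 were higher (*Psmc4*, *Psmc6*, *Psmd6*, *Psmd7*, *Psmd13* and *Psmd14*), 3 were lower and 8 were not called. Of all genes 34.1% were higher and 36.8% lower after TMM scaling, and 16.9% and 54.6% with library totals. The 6 ATPases of the base, which unfold substrates, ranged from 0.55 to 1.40. *Psmc6* had 131, 155, 147, 116 and 103 CPM in the controls and 307, 338, 370 and 361 CPM in *Supt6*-KO mice (log2 fold change 1.40, SE 0.14, adjusted p = 6.8e-06). *Psmc2* had 131, 145, 136, 119 and 115 CPM against 190, 163, 174 and 230 CPM (log2 fold change 0.55, SE 0.13, adjusted p = 0.0029), but -0.12 with library totals. Neither gene overlapped between groups after TMM scaling. *Psmc4*, *Psmc3*, *Psmc1* and *Psmc5* rose by 1.08, 0.84, 0.76 and 0.64, of which *Psmc5* was at -0.04 and *Psmc1* (0.09) and *Psmc3* (0.16) were not called with library totals.

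Both large scaffold subunits of the base were the exception. *Psmd1* had 140, 133, 127, 136 and 138 CPM in the controls and 131, 90.9, 109 and 197 CPM in the *Supt6*-KO mice. *Psmd2*, which docks ubiquitin-like shuttles, had 251, 247, 233, 259 and 230 CPM against 246, 212, 220 and 348 CPM. For both genes mouse 4 was above the controls and the other *Supt6*-KO mice lay within or below the control range, and the log2 fold changes were -0.03 (SE 0.19, adjusted p = 0.9) for *Psmd1* and 0.07 (SE 0.16, adjusted p = 0.69) for *Psmd2*. With library totals both were called lower, at -0.68 and -0.59. *Psmd4*, a ubiquitin receptor, had 143, 160, 147, 135 and 109 CPM against 247, 271, 253 and 263 CPM. Its groups were separate, with a log2 fold change of 0.90 (SE 0.13, adjusted p = 7e-05), and 0.21 (not called) with library totals.

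The lid held both extremes of the regulatory particle. *Psmd14*, the deubiquitinase that removes ubiquitin chains from substrates, had 102, 129, 130, 95.4 and 85.3 CPM in the controls and 403, 433, 465 and 435 CPM in the *Supt6*-KO mice. The groups were far apart, with a log2 fold change of 2.00 (SE 0.15, adjusted p = 1.1e-06). *Psmd3*, a structural lid subunit, had 141, 132, 127, 141 and 120 CPM against 120, 91.6, 86.7 and 162 CPM. Its groups overlapped, with mouse 4 above and mice 2 and 3 below the controls, and its log2 fold change was -0.20 (SE 0.18, adjusted p = 0.32). With library totals *Psmd3* was called lower, at -0.85. The other lid genes *Psmd6*, *Psmd13*, *Psmd12*, *Psmd7*, *Psmd8* and *Psmd11* rose by 1.31, 1.12, 1.10, 1.06, 1.01 and 0.62, and with library totals *Psmd11* was at -0.04 and *Psmd8* (0.30) and *Psmd12* (0.44) were not called. Without *Supt6*-KO mouse 4, *Psmd1* (-0.29) and *Psmd3* (-0.42) were called lower and *Psmd2* was at -0.12.

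The ratio of regulatory particle to core counts within a mouse does not depend on how libraries are scaled. It was 1.3, 1.17, 1.13, 1.33 and 1.38 in the controls and 0.81, 0.697, 0.698 and 0.939 in the *Supt6*-KO mice. The mean was 1.26 ± 0.107 (SD, n = 5) against 0.786 ± 0.115 (SD, n = 4), and each *Supt6*-KO mouse was below each control. No test was run on this ratio, which sums over members. It sets shorter core transcripts against longer 19S transcripts. Allowing for counts per TPM brought the median log2 fold changes of core and regulatory particle from 1.45 and 0.90 to 0.68 and 0.46. With GENCODE lengths these medians were 0.65 and 0.51.

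The 3 base chaperones, which help assemble the ATPase ring, were called higher, where 34.1% of all genes were. *Psmd10* (gankyrin) had 20, 24.7, 25, 16.9 and 15.5 CPM in the controls and 54.7, 71.9, 74.4 and 48.6 CPM in *Supt6*-KO mice (log2 fold change 1.61, SE 0.18, adjusted p = 1.4e-05). *Psmd5* had 38.4, 41.5, 36.1, 36.3 and 36.5 CPM against 59.8, 57.5, 59.3 and 87.1 CPM (log2 fold change 0.80, SE 0.14, adjusted p = 0.00026). The groups were separate for both. *Psmd9* rose by 0.87, and neither *Psmd5* (0.14) nor *Psmd9* (0.18) was called with library totals.

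The 5 immunoproteasome genes were called higher too, where 34.1% of all genes were, but 3 of them overlapped between groups. Each *Supt6*-KO mouse lay above each control for 28.9% of all genes. When length was allowed for only *Psmb10* and *Psme2* were called, with GENCODE lengths (33.7% of all genes) and with counts per TPM (35.1%). *Psmb8*, which takes the place of *Psmb5*, had 12.6, 17.7, 18.8, 15.2 and 7.71 CPM in the controls and 31.2, 31, 41.3 and 12.2 CPM in *Supt6*-KO mice (log2 fold change 1.00, SE 0.33, adjusted p = 0.016; 0.27 and not called with library totals). *Psmb9*, which takes the place of *Psmb6*, had 4.6, 6.35, 7.64, 4.71 and 3.44 CPM against 14.5, 13.6, 25 and 3.66 CPM (log2 fold change 1.40, SE 0.42, adjusted p = 0.011; 0.65 and not called with library totals). In both genes mice 1 to 3 were above the controls and mouse 4 was within them. *Psmb10*, which takes the place of *Psmb7*, had 10.2, 12.8, 13.1, 11 and 10.1 CPM against 27.6, 35.5, 39.5 and 25.1 CPM. Its groups were separate, with a log2 fold change of 1.48 (SE 0.16, adjusted p = 1e-05).

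*Psme1* and *Psme2* encode the α and β subunits of the PA28 activator. *Psme1* had 91.4, 106, 96, 92.2 and 73.5 CPM in the controls and 153, 150, 160 and 84.8 CPM in the *Supt6*-KO mice, with mouse 4 within the controls, and its log2 fold change was 0.57 (SE 0.18, adjusted p = 0.015) but -0.15 with library totals. *Psme2* had 112, 155, 149, 111 and 94 CPM against 437, 517, 537 and 183 CPM. All *Supt6*-KO values of *Psme2* were above the controls, with a log2 fold change of 1.75 (SE 0.28, adjusted p = 0.00018). A near-identical copy, *Psme2b*, was listed at 0 to 9.7 estimated counts per mouse, so a few reads may have been split between the copies. Of the 5 genes *Psmb10* and *Psme2* were also called with library totals, where 16.9% of all genes were higher. Without *Supt6*-KO mouse 3 the same count of 2 was reached, since *Psmb8* (0.78), *Psmb9* (0.98) and *Psme1* (0.49) were no longer called. When length was allowed for *Psme1* was at -0.21 (GENCODE lengths) and -0.24 (counts per TPM).

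**Figure D2:**
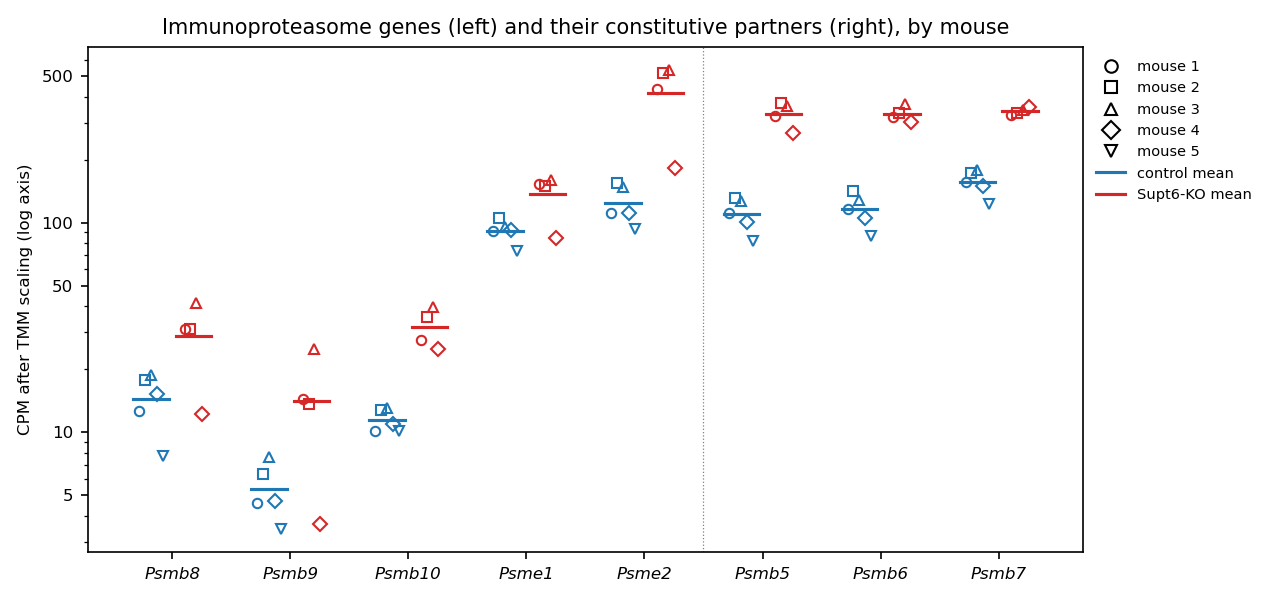
CPM after TMM scaling (log axis) of the 5 immunoproteasome genes and the 3 constitutive catalytic genes in each mouse; marker shape is the mouse number and lines are group means. *Supt6*-KO mouse 4 (diamond) lies within the controls for *Psmb8*, *Psmb9* and *Psme1* and well above them for *Psmb5*, *Psmb6* and *Psmb7*; the log2 fold change of *Psme1* is -0.15 and not called with library totals.

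Whether the catalytic subunits shifted toward the immunoproteasome was tested with the count ratio of each immunoproteasome gene to its constitutive partner within a mouse. *Psmb8*/*Psmb5* was 0.113, 0.135, 0.148, 0.151 and 0.0946 in the controls and 0.0968, 0.0829, 0.114 and 0.0451 in the *Supt6*-KO mice, a log2 difference of -0.66. *Psmb9*/*Psmb6* was 0.0395, 0.0448, 0.0594, 0.0446 and 0.04 against 0.0449, 0.0406, 0.068 and 0.0122, a log2 difference of -0.36. *Psmb10*/*Psmb7* was 0.0653, 0.0742, 0.0736, 0.0737 and 0.082 against 0.0844, 0.107, 0.115 and 0.07, a log2 difference of 0.33. With the 9 mice none of the 3 pairs passed a two-sided exact permutation test over mice, with p = 0.0556, 0.722 and 0.0952 (0.143, 0.722 and 0.143 after Benjamini-Hochberg adjustment over the 3 pairs), where 5 mice against 4 can reach 0.00794. The groups overlapped in each pair, and with 1 mouse of either group left out *Psmb9*/*Psmb6* ranged from -0.68 to 0.14. The ratios do not allow for transcript length. When counts per TPM were allowed for, the log2 fold changes were 0.40 and 0.70 for *Psmb8* and *Psmb5*. They were 0.41 and 0.78 for *Psmb9* and *Psmb6*, and 0.89 and 0.34 for *Psmb10* and *Psmb7*. With GENCODE lengths the 3 pairs were at 0.52 and 0.66, 0.77 and 0.50, and 0.82 and 0.40. *Psmb8*/*Psmb5* had an unadjusted exact permutation p of 0.0357 without *Supt6*-KO mouse 3 (-0.83), and *Psmb10*/*Psmb7* one of 0.0179 without mouse 4 (0.46), in opposite directions. PA28α and PA28β counts together were 0.11 to 0.116 of the core counts in the controls and 0.111, 0.112, 0.115 and 0.0523 in the *Supt6*-KO mice, where mouse 4 alone stood apart. The ratio *Psme2*/*Psme1*, chosen after the values were seen and not tested, was 1.22, 1.46, 1.55, 1.21 and 1.28 in the controls and 2.86, 3.45, 3.37 and 2.16 in the *Supt6*-KO mice, with no overlap.

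**Figure D3:**
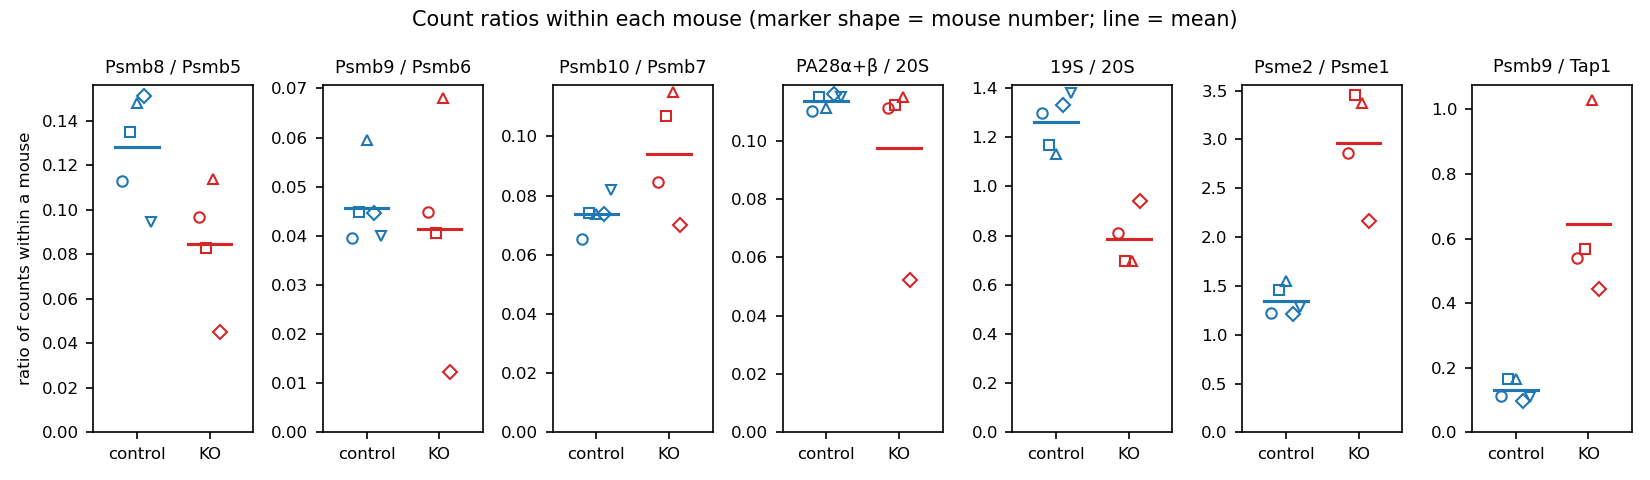
Ratios of counts within each mouse (vertical axes start at 0; marker shape is the mouse number, lines are means). The ratio of 19S to 20S counts is 1.13 to 1.38 in controls and 0.697 to 0.939 in *Supt6*-KO mice. The ratios of *Psmb8*, *Psmb9* and *Psmb10* to their constitutive partners overlap between the groups. None of the ratios allows for transcript length.

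The remaining activators and tissue-restricted subunits were not called. *Psme3* (PA28γ, a nuclear activator) had 117, 120, 101, 120 and 101 CPM in the controls and 113, 73.4, 83.5 and 184 CPM in *Supt6*-KO mice (log2 fold change 0.02, SE 0.23, adjusted p = 0.94), and *Psme4* (PA200, known for degradation of acetylated histones) had 107, 98.6, 97.3, 110 and 98 CPM against 106, 127, 122 and 115 CPM (log2 fold change 0.20, SE 0.10, adjusted p = 0.097). The groups overlapped for both genes, and with library totals *Psme4* was called lower (-0.50) and *Psme3* was at -0.61. *Psme4* was called higher with DESeq2 and with RLE factors (0.27 in both) and when lengths were allowed for (0.87 with GENCODE lengths and 0.97 with counts per TPM). *Psma8*, a testis subunit, was close to the detection limit, with 4 to 11 counts in the controls and 6 to 10 in the *Supt6*-KO mice (adjusted p = 0.058, and called higher at 0.95 with RLE factors and at 1.09 without control 5). *Psmb11*, the thymus subunit, had 1 count in control 5 and none elsewhere, and was left out of the test.

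Levels of different genes were compared per length, from the TPM values deposited for the 5 controls and *Supt6*-KO mouse 4. In the controls the core genes ranged from 127 ± 10.2 TPM (*Psma3*, SD, n = 5) to 464 ± 28.4 TPM (*Psmb4*), with a median of 294 TPM. The ranges of *Psmb4*, *Psma6* (457 ± 30.4 TPM) and *Psmb3* (441 ± 22.3 TPM) overlapped between mice. Within each control *Psmb4* and *Psma6* were above *Psmb3*. Regulatory particle genes had a median of 152 TPM, from 69.5 ± 6.17 TPM (*Psmd11*) to 333 ± 15.5 TPM (*Psmd8*). The immunoproteasome subunits were scarce, at 24.7 ± 5.52 TPM for *Psmb8*, 19 ± 1.14 TPM for *Psmb10* and 17.1 ± 3.52 TPM for *Psmb9*, while *Psme2* (338 ± 32.6 TPM) and *Psme1* (221 ± 9.58 TPM) lay in the range of the core. In TPM, *Psmb8* made up 7.22 ± 1.27% of *Psmb8* plus *Psmb5* in the controls, *Psmb9* 6.3 ± 1.03% of *Psmb9* plus *Psmb6*, and *Psmb10* 4.78 ± 0.373% of *Psmb10* plus *Psmb7* (SD, n = 5). In *Supt6*-KO mouse 4 these shares were 2.65, 1.78 and 4.53%, the first 2 below each control and the last within the controls. These shares do not stand for the *Supt6*-KO group, since mouse 4 had the lowest count ratios of its group for each of the 3 pairs.

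**Figure D4:**
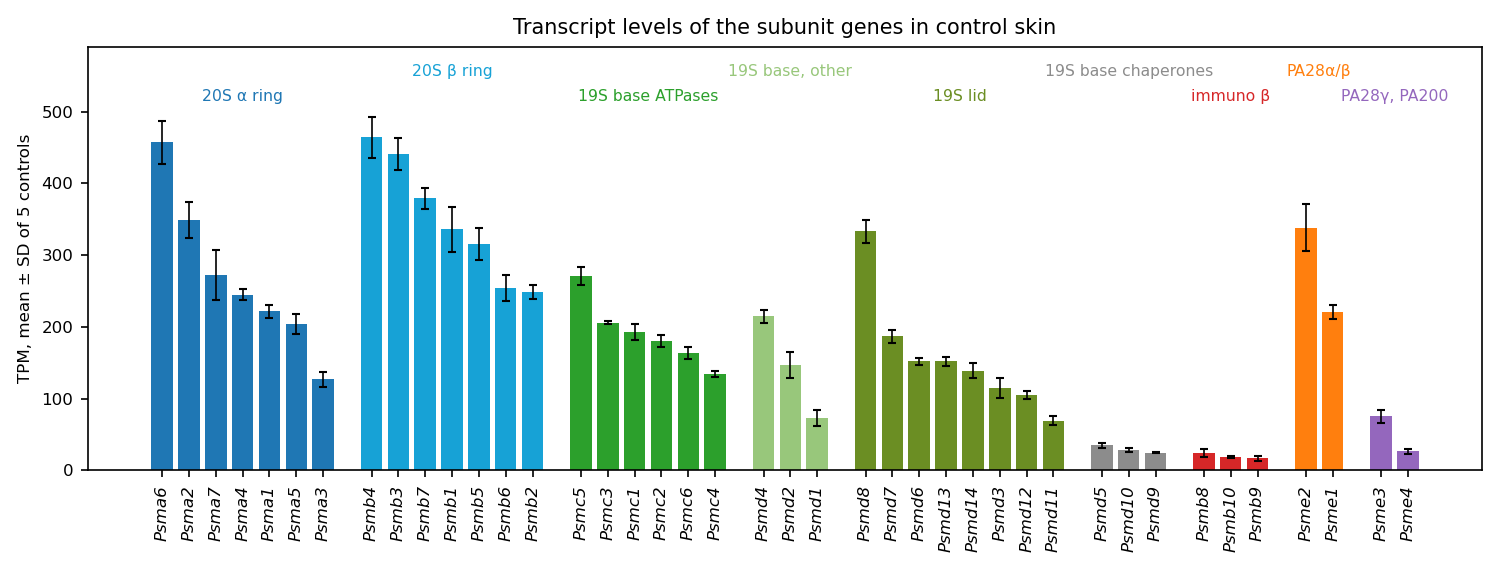
Mean TPM (bars, SD of 5 control mice) of the subunit genes in control skin, by group; the axis starts at 0, and *Psma8* and *Psmb11* are not drawn. Core genes lie between 127 and 464 TPM and the immunoproteasome subunits *Psmb8*, *Psmb9* and *Psmb10* between 17.1 and 24.7 TPM.

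Transcript length moved with these changes. With length taken as counts per TPM in the controls, relative to the median gene, the core genes were short (0.168 to 0.849, median 0.272) and the regulatory particle genes longer (0.392 to 1.19, median 0.51). Across the 42 tested members the log2 fold change and log2 length had Pearson's r = -0.61 and Spearman's rho = -0.59, and across 15350 genes -0.32 and -0.40. These are descriptions across genes, which share the same 9 libraries. Within the core alone r was 0.26 and rho 0.18, and within the regulatory particle r was -0.65 and rho -0.39. When the fit allowed for length in each mouse in this way, an alternative chosen after the data were seen, 29 members were called higher and 0 lower, against 35.1% and 35.2% of all genes, and the median log2 fold change was 0.68 for the core and 0.46 for the regulatory particle. With GENCODE lengths 29 members were called higher and 1, *Psmd3*, lower, against 33.7% and 34% of all genes. With counts per TPM *Psmb2*, *Psmb3*, *Psmc2*, *Psmc5*, *Psmd11*, *Psmb8* and *Psmb9* were not called, *Psme1* was at -0.24 (adjusted p = 0.14) and *Psme4* was called higher (0.97). The part that RNA quality or library preparation has in this relation was not tested.

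**Figure D5:**
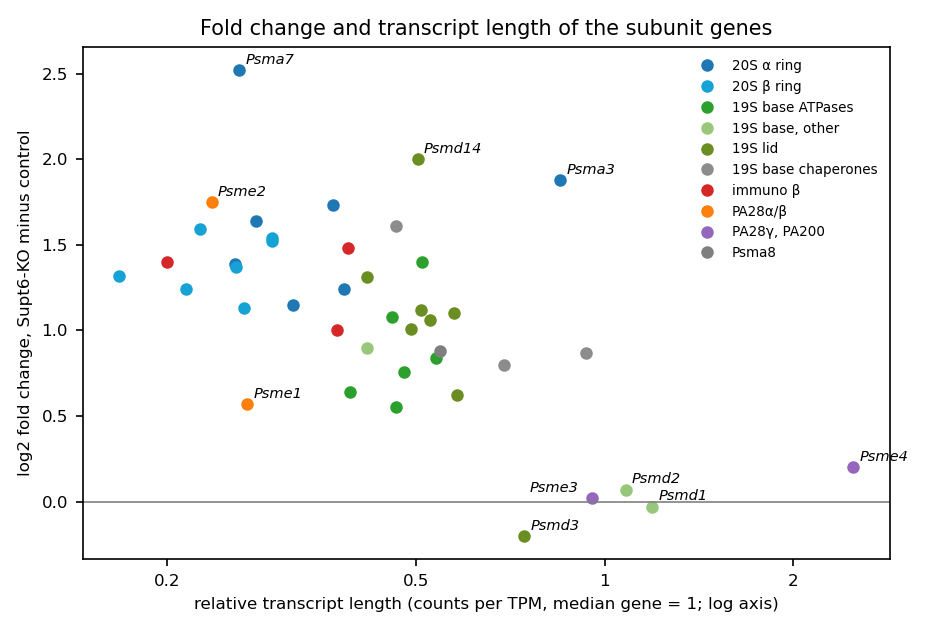
Log2 fold change (Supt6-KO minus control, TMM) of the 42 tested members against relative transcript length (log axis, median gene at 1); colors are the groups. The longest members, *Psmd1*, *Psmd2*, *Psme3* and *Psme4*, lie near 0, and *Psma3* and *Psmd14* lie high for their length. *Psmd9*, nearly as long as *Psme3* (0.935 against 0.956), is at 0.87 (0.18 and not called with library totals). *Psmd2*, *Psme1*, *Psme3* and *Psme4*, among others, fall below 0 with library totals.

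Genes that assemble and regulate the proteasome were read from lists chosen with earlier results of these data known. *Sem1*, a small lid subunit, rose by 1.65 (SE 0.19, adjusted p = 1.2e-05), but was at 0.08 (adjusted p = 0.57) in the fit that allowed for counts per TPM and at 1.09 (adjusted p = 5e-05) in the fit on GENCODE lengths, and the ubiquitin receptor *Adrm1* was not called (0.29, and -0.37 with library totals). Among 8 assembly factors 6 were higher and 1 lower, where 34.1% and 36.8% of all genes were. With library totals 4 were higher and 2 lower, where 16.9% and 54.6% of all genes were. The core chaperones *Psmg4*, *Pomp*, *Psmg3* and *Psmg1* rose by 2.13, 1.84, 1.70 and 1.46. The core chaperone *Psmg2* rose by 0.63, but was not called with library totals (-0.06), GENCODE lengths (-0.02) or counts per TPM (-0.07). *Psmf1*, which encodes the inhibitor PI31, fell by 0.61 (-0.36 and not called when counts per TPM were allowed for). *Psmg4* had 3.53, 4.79, 4.65, 3.03 and 2.7 CPM in the controls and 12, 19.1, 20.1 and 14.4 CPM in the *Supt6*-KO mice, with no overlap.

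Among 8 genes of the NRF1 and NRF2 axis 3 were higher and 4 lower, where 34.1% and 36.8% of all genes were. With library totals 2 were higher and 5 lower, where 16.9% and 54.6% of all genes were. *Nfe2l1*, encoding NRF1, had 367, 329, 325, 383 and 353 CPM in the controls and 148, 103, 99.1 and 128 CPM in the *Supt6*-KO mice. Each *Supt6*-KO value was under each control value, and the log2 fold change was -1.55 (SE 0.15, adjusted p = 4.4e-06). *Nfe2l2*, encoding NRF2, the regulator of oxidative stress genes, had 60.9, 60.4, 57.1, 60.7 and 62.6 CPM against 115, 136, 160 and 205 CPM (log2 fold change 1.35, SE 0.15, adjusted p = 1.4e-05). Of their small MAF partners *Maff* rose by 1.31, and *Mafg* and *Mafk* fell by 0.50 and 0.44 (*Mafg* was at -0.04 and not called with GENCODE lengths). *Vcp*, the ATPase that extracts NRF1 from the endoplasmic reticulum, fell by 0.84, and *Ddi2*, the protease that cleaves it, was at -0.08 (adjusted p = 0.7), called lower with library totals (-0.76) and called higher with GENCODE lengths (0.81). RNA levels do not show NRF1 or NRF2 protein or its activity.

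Of 12 proteasome-associated factors 5 were higher and 4 lower, where 34.1% and 36.8% of all genes were, led by *Zfand2b* at 1.52 and *Zfand2a* at 1.49, with the deubiquitinase *Uchl5* at 0.96 (0.30 and not called with library totals) and the shuttle *Ubqln1* at -0.66. When counts per TPM were allowed for 8 of the 12 were higher and 3 lower, against 35.1% and 35.2% of all genes. Of 4 genes for ubiquitin and its activating enzymes 1, the ribosomal fusion gene *Rps27a*, was higher (2.39) and 0 were lower, also at an unadjusted p under 0.05. With library totals 3 of the 4 were lower, where 54.6% of all genes were. *Ubb*, a polyubiquitin gene, was at -0.27 and not called, though each *Supt6*-KO mouse was below each control. It was called lower at -0.94 with library totals and at -0.77 when counts per TPM were allowed for.

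Of 12 peptide loading genes for MHC class I 2 were higher and 8 lower, with a median log2 fold change of -0.59, against 34.1% and 36.8% of all genes. With library totals 0 were higher and 10 lower, where 54.6% of all genes were lower. *Tap2*, a subunit of the peptide transporter, had 25.3, 23.5, 26, 27.9 and 21.4 CPM in the controls and 10.9, 7.44, 10.2 and 6.14 CPM in the *Supt6*-KO mice, each below the controls (log2 fold change -1.52, SE 0.18, adjusted p = 2.1e-05). *Tap1*, its partner, had 40.7, 38.5, 46.7, 47.8 and 31.2 CPM against 26.7, 23.9, 24.3 and 8.26 CPM, without overlap (log2 fold change -0.98, SE 0.29, adjusted p = 0.0093). *Tapbp*, *Nlrc5* and *B2m* fell by 1.39, 1.20 and 0.99 (*Nlrc5* was at -0.37 and not called when counts per TPM were allowed for), whereas the general chaperones *Calr* and *Pdia3* rose by 1.02 and 0.96, which were not called with library totals (0.39 and 0.28). *Psmb9* and *Tap1* are divergent neighbours: their RefSeq starts lie at 34187330 (reverse strand) and 34187556 (forward strand) on chromosome 17 of GRCm38.p6, 225 bases apart. The count ratio *Psmb9*/*Tap1*, chosen after the values were seen and not tested, was 0.113, 0.165, 0.164, 0.0986 and 0.111 in the controls and 0.541, 0.568, 1.03 and 0.445 in the *Supt6*-KO mice. The ratio *Psmb8*/*Tap2*, of a neighbouring pair, was 0.361 to 0.755 in the controls and 1.98 to 4.16 in the *Supt6*-KO mice, and neither ratio overlapped. Both ratios set a shorter transcript against a longer one. When counts per TPM were allowed for, *Psmb9* (0.41) and *Psmb8* (0.40) were not called and *Tap1* (-0.88) and *Tap2* (-1.56) were called lower.

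Among 12 genes of interferon-gamma signalling and its usual targets 8 were higher and 4 lower, against 34.1% and 36.8% of all genes, but with library totals 4 were higher and 4 lower, against 16.9% and 54.6%. *Ifng* was listed at 0 counts in the 5 controls and at 5, 1, 5 and 4 counts in the *Supt6*-KO mice, too few for a fold. The target *Gbp2* had 6.26, 6.38, 8.44, 10.3 and 5.55 CPM in the controls and 20.1, 29.9, 50.5 and 6.39 CPM in *Supt6*-KO mice (log2 fold change 1.85, SE 0.44, adjusted p = 0.0028). *Cxcl9* had 1.02, 1.53, 2.08, 5 and 1.22 CPM against 19.8, 30.5, 46.8 and 2.01 CPM (log2 fold change 3.51, SE 0.72, adjusted p = 0.001). As with *Psmb8* and *Psmb9*, mouse 3 was highest and mouse 4 lay within the controls for these targets, and also for *Irf1* and *Gbp3*. Other listed genes differed. *Irf8* was highest in mouse 1 (6.02, 4.89, 5.08 and 3.99 CPM), each above the controls, and *Ifngr2* in mouse 2 (88.6, 102, 76.7 and 42 CPM). *Irf1* rose by 1.03 (0.29 and not called with library totals) and *Ciita*, the MHC class II activator, fell by 2.44.

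Markers of leukocytes are given beside the same shares of all genes, 34.1% higher and 36.8% lower (16.9% and 54.6% with library totals). The summed CPM of 6 general leukocyte markers was 97.2 to 112 in the controls and 164, 165, 216 and 129 in the *Supt6*-KO mice, with 4 of the 6 higher and 1 lower (2 and 2 with library totals). *Cd52* had the highest level per length in the controls (85.1 TPM) and rose by 1.12, but was at -0.42 and called lower when counts per TPM were allowed for, *Tyrobp* rose by 2.11 and *Laptm5* fell by 1.83. The 6 neutrophil markers summed to 13.9 to 42.7 CPM against 4560, 5157, 6395 and 2512 CPM, with 5 higher and 1 lower. This sum was nearly all *S100a9* and *S100a8* (log2 fold change 7.87), which inflamed keratinocytes also express. The counts of the defining marker *Ly6g* were 0 in 4 controls and 1 in the other, against 4, 0, 15 and 1 in *Supt6*-KO mice (called higher, adjusted p = 0.0076), and the lower marker was *Mpo*, with 4 to 26 counts against 1, 0, 0 and 0. The 6 macrophage markers summed to 142 to 281 CPM against 764, 802, 1072 and 601 CPM, with 5 higher and 1 lower (2 and 1 with library totals) and *Lyz2* (2.79) leading. Mouse 3 was highest and mouse 4 lowest of the *Supt6*-KO mice in these 3 sums, as for the immunoproteasome genes, but a few abundant genes made up the neutrophil and macrophage sums. *Laptm5*, *Cd68* (20.7, 15.9, 20.7 and 33.5 CPM) and *C1qa* (38.1, 31.4, 39.7 and 45.9 CPM) were highest in mouse 4. The part of these cells in the immunoproteasome result was not tested. The 5 T cell markers with a row were 1 higher and 3 lower (*Cd3e* at -4.13), and summed to 24.1 to 33.3 CPM against 4.74 to 10 CPM.

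Markers of other tissue compartments were read against the 34.1% of all genes that were higher and the 36.8% that were lower. Of 6 markers each, 5 muscle (*Myh4* at -4.38), 4 adipocyte (*Lep* at -3.04), 5 endothelial (*Cdh5* at -2.11) and 4 fibroblast markers (*Col1a1* at -3.64) were lower and none was higher. Of 5 hair markers 4 were lower, led by *Krt25* with 12511, 1150, 4540, 2632 and 11 counts in the controls and 0 to 3 counts in the *Supt6*-KO mice. Of 6 keratinocyte markers 1 was higher (*Krt1* at 3.65) and 2 lower, shares at or below those of all genes. Of 6 proliferation markers 3 were higher (*Ccnb1* at 2.45) and 0 lower, with sums of 218 to 279 CPM in the controls and 308, 280, 363 and 862 CPM in the *Supt6*-KO mice, mouse 4 the highest. In whole skin, fewer cells of a type and less RNA per cell cannot be told apart, and the part of these shifts in the subunit results was not tested.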

How the data were processed

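Per the labels and the study's methods, reads were mapped by the authors with Bowtie2 2.3.4.3 against mm10, and the authors deposited estimated counts (expected counts) per gene from RSEM 1.3.1, not normalized between mice. HISAT and DESeq2 1.4.5 are also named in the submitters' processing notes, and the annotation release was not given in the sources used here. The authors also deposited TPM for 6 of the 9 mice, used here only for levels per length and as counts per TPM. Of 17943 gene identifiers 17911 matched RefSeq (GRCm38.p6), and coordinates come from it. About 9% of the estimated counts were not whole (tolerance 1e-09), and all were rounded.

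Genes with at least 10 counts over the 9 mice were tested with edgeR 4.0.16 (R 4.3.3; glmQLFit and glmQLFTest, TMM, no covariate) with Benjamini-Hochberg adjustment over 16426 genes. The SE is the absolute log2 fold change divided by the square root of F. Ratios used a pseudocount of 0.5. Alternatives were DESeq2 1.42.0, RLE and upper-quartile factors, library totals, other filters, a fit without the 50 most abundant genes, blocking on replicate number, GENCODE M21 lengths, counts per TPM (genes with at least 0.1 TPM in the controls, 15394) and each mouse left out. In simulated counts for this comparison (16432 genes) edgeR recovered 97.0% of 100 genes changed by 1 on the log2 scale and 100.0% of 100 changed by 2, and called 9 unchanged genes. Depth was about equal in all mice, and floors and counts near 0 cover counting error only.

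The members and the lists were chosen with earlier results of these data known. Values in every mouse are given for *Supt6*, the immunoproteasome genes, their partners and the members with the largest and smallest change in each group. Members not called are named, as is the called gene with the largest change in each list and up to 3 more by role; values of other listed genes were chosen after they were seen. *Paaf1*, *Trac* and *Krt85* had no row, and the results of 3 further listed genes are not reported here. Nothing says whether the mice are littermates, and p-values measure the spread between these mice. Figures and tables used Python 3.11.15, pandas 2.3.3, scipy 1.17.1 and matplotlib 3.10.9.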

Additional observations from a re-analysis of the deposited data

Results flagged for a closer look

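Among 96 groups of 4 or 5 values examined, 5 held a value whose gap to its neighbour was large for the range of its group, where chance gives about 1 in 20 (4.8). *Supt6*-KO mouse 4 had 84.8 CPM of *Psme1* (group median 151), 87.1 CPM of *Psmd5* (median 59.6) and a ratio of PA28α and PA28β to core counts of 0.0523 (median 0.112). *Supt6*-KO mouse 2 had 72.4 CPM of *Psmd9* (median 64.3). Control 3 had a *Psmb9*/*Psmb6* ratio of 0.0594 (median 0.0446).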

How the results depend on the processing

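With library totals, members called higher fell from 36 to 23 and lower calls went from 0 to 4; in the regulatory particle 6 were higher and 3 lower, in the immunoproteasome 2 were higher, and of all genes 2771 were higher. The signs of *Psmc2* (-0.12), *Psmc5* (-0.04), *Psmd2* (-0.59), *Psmd11* (-0.04), *Psme1* (-0.15), *Psme3* (-0.61), *Psme4* (-0.50), *Adrm1* (-0.37), *Psmg2* (-0.06) and *Usp14* (-0.26) turned, as did, among other listed genes, those of *Ngly1* (-0.06), *Ecpas* (-0.63), *Ube3c* (-0.56), *Rad23b* (-0.46) and *Canx* (-0.47); the missing composition factors make this shift. With GENCODE lengths 1 member, *Psmd3*, was lower, and 2 immunoproteasome genes were higher, as with counts per TPM (2). Signs turned for *Psmd1* (0.02 and 0.14), *Psme1* (-0.21 and -0.24), *Adrm1* (-0.23 and -0.20), *Psmg2* (-0.02 and -0.07) and *Ddi2* (0.81 and 0.16) with both, as for *Uba6* (0.64 and 0.53), *Erap1* (0.12 and 0.17), *Jak2* (0.18 and 0.26), *Cd52* (-0.27 and -0.42) and others of the marker lists, and for *Psme3* (-0.05) with GENCODE lengths; the cause was not tested. *Psmd1* was at 0.03 with RLE factors and at 0.03 with DESeq2, *Psmd2* at -0.02 and *Psme3* at -0.07 with upper-quartile factors, and *Psme3* at -0.03 with at least 10 counts in each mouse. Correlations of deviations from the group means were -0.009, 0.159, 0.142 and 0.026 between mice of the same number. Their mean was 0.079, against -0.016 between mice of different numbers, which does not settle whether the numbers pair the mice. A replicate block left 36 members higher and 0 lower, with *Psme3* at -0.11.

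With each mouse left out in turn, 33 to 37 members were higher and 0 to 2 lower, 14 core and 14 regulatory particle genes were higher in each fit, 0 to 2 regulatory particle genes were lower, and 2 to 5 immunoproteasome genes were higher. Of all genes 5305 to 5729 were higher and 5669 to 6392 lower. Log2 ratios ranged from -0.83 to -0.38 for *Psmb8*/*Psmb5*, from -0.68 to 0.14 for *Psmb9*/*Psmb6* (positive without *Supt6*-KO mouse 4) and from 0.22 to 0.46 for *Psmb10*/*Psmb7*. The exact permutation p, not adjusted over the 3 pairs, was under 0.05 for *Psmb8*/*Psmb5* without *Supt6*-KO mouse 3. It was also under 0.05 for *Psmb10*/*Psmb7* without *Supt6*-KO mouse 4. The ranges were -0.78 to -0.63 for 19S to 20S and -0.39 to -0.01 for PA28 to 20S. *Psmd1* ranged from -0.29 to 0.10, *Psmd2* from -0.12 to 0.14, *Psme3* from -0.32 to 0.17 and *Ddi2* from -0.29 to 0.04. In the other fits, with no filter or without the 50 most abundant genes, the calls of the 42 members were as in the main comparison.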
